A study of Homo sapiens with 4 samples.

Results

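The mRNAs described here code for the translation initiation and elongation factors, together with the release factors and the poly(A)-binding proteins that act with them, in SNU638 gastric cancer cells. Protein-coding rows were taken whose symbol began with EIF1 to EIF6 or with EEF1 or EEF2, or was ETF1, GSPT1, PABPC1 or PABPC4, with EIF2AK2 and hyphenated symbols left out and with at least 40 counts summed over the 4 libraries. Of the 19672 protein-coding rows among 46427 genes listed, 73 carried such a symbol and 70 had enough counts. EIF4EBP3, EIF4E1B and EIF2S3B, with 11, 4 and 23 counts in all, were left out. The 70 genes are given by complex, with 13 in the EIF2 group, 14 in EIF3, 14 in the EIF4 group, 14 in the EEF group and 15 other factors. All 70 passed the filter on low counts that left 17781 genes for testing.

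SNU638 is an established human gastric cancer cell line. Cells with the control vector and cells with the YTHDF1 vector were sequenced as poly(A) RNA, with 2 libraries of each that the labels call biological replicates 1 and 2. All 4 libraries shared 24 h without serum followed by IFN-γ at 10 ng/ml, so there were no cells without IFN-γ, and the labels give 8 h of IFN-γ where the published legends give a longer time. The study asked how overexpressed YTHDF1 changes the response to IFN-γ, and its methods describe overexpression by plasmid transfection. The RNA was sequenced from this 1 cell line only.

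Initiation begins when EIF2 carries the initiator tRNA to the small ribosomal subunit, which EIF3 holds ready and which EIF4F brings to the capped 5′ end of an mRNA. Elongation then runs on EEF1A, which delivers each aminoacyl-tRNA, and EEF2, which moves the ribosome along, until ETF1 and GSPT1 release the chain at a stop codon. YTHDF1 is a cytoplasmic reader of N6-methyladenosine in mRNA, and one of the ways it has been held to act is by raising translation through EIF3. The values below are mRNA levels and do not measure factor proteins, their phosphorylation, or translation itself.

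The libraries held between 57398137 and 60864942 counts each, of which the 70 genes took 3.80% to 3.91%. YTHDF1 stood at 82.2 and 80.3 CPM (counts scaled to a common library size after TMM normalization, the usual CPM unit) in control replicates 1 and 2 and at 16494.5 and 2628 CPM in the YTHDF1 replicates. The libraries fell together by replicate number and not by vector. Over the genes tested, Pearson's r of log2 CPM was 0.985 and 0.983 between libraries of the same number, but only 0.885 within control and 0.889 within the YTHDF1 vector. Over the 70 translation factors the same values were 0.9996 within each number and 0.988 or 0.989 within each vector. Epithelial markers summed to between 4078 and 6752 CPM without TMM scaling, against at most 1.06 for immune, 11.2 for fibroblast and 0.324 for endothelial markers. All 8 epithelial markers differed between the replicate numbers at an adjusted p under 0.05 by edgeR, and in both directions. In replicate 2, KRT18, KRT8 and KRT19 were higher by 1.01, 0.79 and 0.36 on the log2 scale, whereas CLDN4, ELF3, CDH1, CLDN7 and EPCAM had log2 differences of -5.85, -3.57, -0.58, -0.34 and -0.18. The part of these differences in the results below was not tested. As nothing states how separate the cultures were, p-values measure the spread between these libraries only.

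No translation factor mRNA passed the test between the vectors. Of the 70 genes, 0 had an unadjusted p under 0.05 by edgeR's quasi-likelihood test, where 0.135% of all genes tested did (0.0394% higher and 0.0956% lower), and the smallest p was 0.244, for EIF2D. The count was also 0 with limma-voom, with the Wald test of DESeq2 and with the likelihood ratio test of edgeR. Those tests gave only 20, 23 and 18 of all genes tested. Like the main test they keep the spread between the replicate numbers in their error, so their counts of 0 add little. With the replicate number as a block, 3.79% of all genes tested had an unadjusted p under 0.05 and 0.0562% an adjusted one. There the count among the 70 was 0 as well, and their smallest p by edgeR was 0.0617. None was called higher or lower by the study's rule, an unadjusted p under 0.05 and a change of 0.5 or more on the log2 scale, which 0.0225% and 0.0787% of all genes met, or by an adjusted p, which 0% met. The log2 fold changes of YTHDF1 over control ran from -0.11 for EIF2D to 0.14 for EIF5A2, with 39 genes higher and 31 lower where 52.2% of all genes tested were higher, around a median of 0.01 against 0.0046 over all genes tested. All 70 were within 0.15 of zero, as were 72.6% of all genes tested and 93.6% of those at least as abundant as the least abundant translation factor. In these bulk libraries, fewer cells with a transcript and less of it per cell cannot be told apart. The spread between replicates left the single estimates wide. The half-width of the 95% interval was 0.22 for the most precisely measured gene and 1.74 for the least. Within each replicate number the vectors could be compared without that spread, with 1 library a side and no test. These comparisons were made at unlike levels of YTHDF1, which stood at 16494.5 CPM in YTHDF1 replicate 1 and at 2628 CPM in replicate 2. Those log2 CPM differences ran from -0.17 to 0.12 in replicate 1 and from -0.18 to 0.18 in replicate 2, and they had the same sign in both for 44 of 70 genes, against 49.3% of all genes tested.

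**Figure D1:**
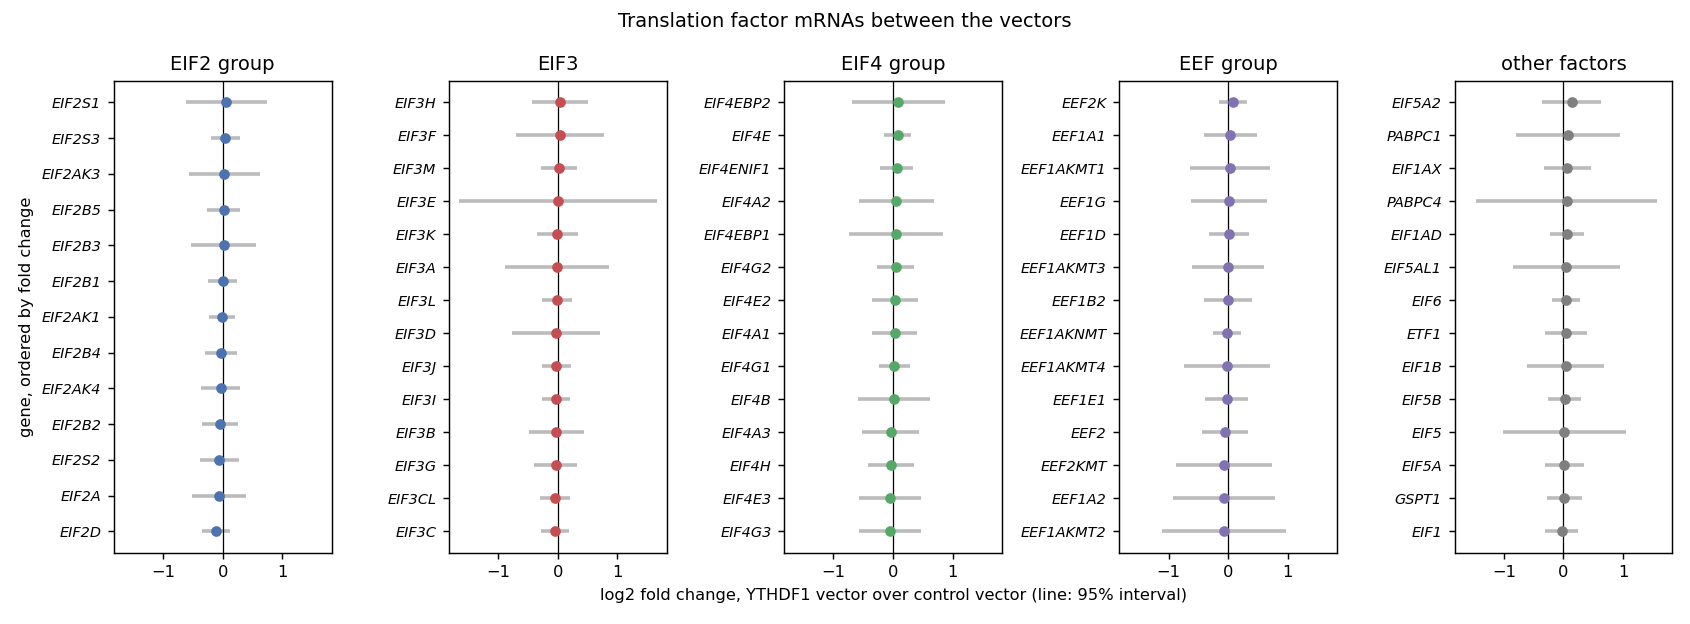
Each panel holds the genes of a group, and each point is the log2 fold change of the YTHDF1 vector over the control vector on the horizontal axis, with its 95% interval from edgeR as a grey line (2 libraries per vector, EIF1AY not drawn). Every point lies within 0.15 of zero and every interval includes zero, the widest drawn being that of EIF3E from -1.66 to 1.66.

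EIF3 is the largest initiation factor, a complex that binds the small ribosomal subunit, keeps it apart from the large one and recruits mRNA. Of its 14 genes, 0 passed the test between the vectors. With YTHDF1, 4 were higher and 10 lower, where 52.2% of all genes tested were higher. EIF3C and EIF3CL, both among the lower, are near-copies and not separate measurements. The median log2 fold change was -0.02 with a range from -0.05 for EIF3C to 0.04. The smallest p in edgeR's test was 0.60. In the replicates numbered 1 the median YTHDF1 minus control difference of log2 CPM was -0.02, and in those numbered 2 it was -0.03.

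EIF3A, the largest scaffold subunit, had 662 and 460 CPM in control replicates 1 and 2 and 667 and 444 CPM in the YTHDF1 replicates, a log2 fold change of -0.01 (SE 0.30). EIF3B, the scaffold next to it, had 298 and 248 CPM in control and 292 and 243 CPM with YTHDF1, a log2 fold change of -0.03 (SE 0.16). In both genes the replicates numbered 1 were high and those numbered 2 low whatever the vector, so the vectors overlapped. EIF3G, the RNA-binding subunit of the same module, had 148 and 169 CPM in control and 144 and 165 CPM with YTHDF1, and here the replicates numbered 2 were the higher ones. EIF3I, its WD40 repeat partner, had 246 and 244 CPM in control and 237 and 243 CPM with YTHDF1. It was the only EIF3 gene whose vectors did not overlap, with both YTHDF1 libraries below both control libraries, at a log2 fold change of -0.03 (95% interval -0.26 to 0.20). Over all genes tested 11.5% had vectors that did not overlap, 5.67% higher and 5.83% lower with YTHDF1, against 7 of these 70, with 4 higher and 3 lower.

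EIF3E, the subunit also known as INT6, showed the widest gap between replicates of all EIF3 genes. It stood at 441 and 216 CPM in control replicates 1 and 2 and at 455 and 203 CPM in the YTHDF1 replicates. Its log2 fold change between the vectors was 0.002 with an SE of 0.58, and the differences within the replicate numbers, 0.05 and -0.09, had opposite signs. EIF3D, which can itself bind the cap of selected mRNAs, had 272 and 200 CPM in control and 270 and 193 CPM with YTHDF1. It followed the same order as EIF3E, high in both replicates numbered 1.

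EIF3F and EIF3H are the subunits that carry MPN domains. EIF3F had 221 and 300 CPM in control and 222 and 312 CPM with YTHDF1, higher in the replicates numbered 2. EIF3H had 289 and 238 CPM in control and 294 and 246 CPM with YTHDF1, higher in the replicates numbered 1. Both had a log2 fold change of 0.04 between the vectors, the highest among the EIF3 genes, with SE 0.26 and 0.16.

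EIF3K, EIF3L and EIF3M are among the subunits with a PCI domain. EIF3K had 109 and 119 CPM in control and 105 and 122 CPM with YTHDF1. EIF3L was level in all libraries, with 434 and 440 CPM in control and 424 and 442 CPM with YTHDF1. EIF3M had 209 and 232 CPM in control and 214 and 232 CPM with YTHDF1. Their log2 fold changes were -0.01 (SE 0.12), -0.01 (SE 0.09) and 0.02 (SE 0.10), and in all 3 the vectors overlapped. EIF3J, which joins the complex only loosely, had 107 and 116 CPM in control and 110 and 109 CPM with YTHDF1, with overlap again.

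EIF3C and its near-copy EIF3CL gave the lowest EIF3 fold changes, -0.05 (SE 0.08) and -0.04 (SE 0.09). EIF3C had 165 and 156 CPM in control and 158 and 153 CPM with YTHDF1. EIF3CL had 154 and 144 CPM in control and 148 and 142 CPM with YTHDF1. They cannot be taken as separate measurements, since 82.6% of the 100-base stretches of EIF3C transcripts in GENCODE release 29 also occur in EIF3CL and 95.3% of those of EIF3CL occur in EIF3C. The ratio of EIF3CL to EIF3C counts was between 0.92 and 0.94 in all libraries, so how reads were divided between them cannot be told apart from their own levels.

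**Figure D2:**
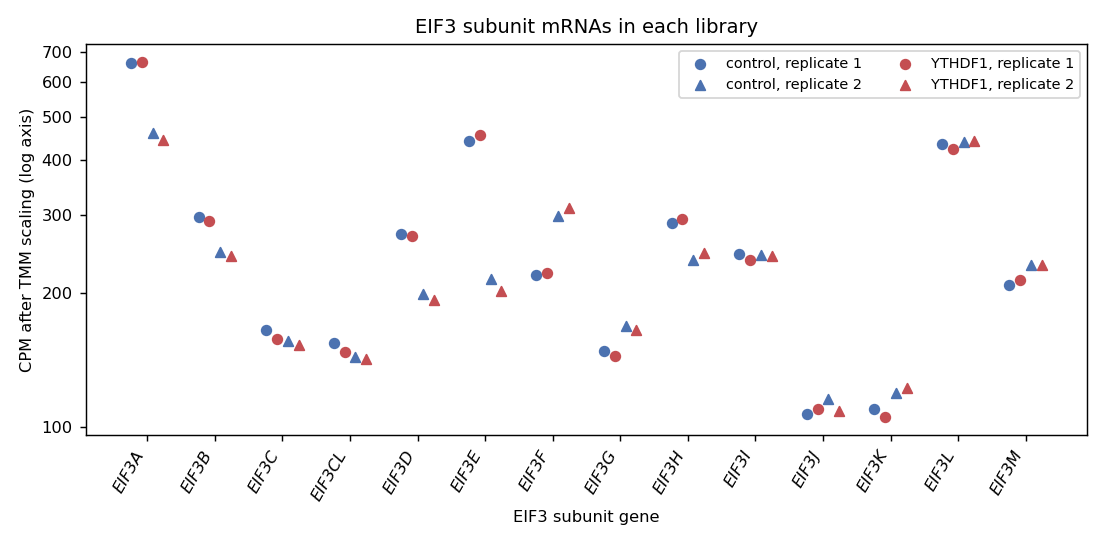
Points give the CPM of each EIF3 subunit gene (log vertical axis) in the 4 libraries, with control in blue, the YTHDF1 vector in red, replicate 1 as circles and replicate 2 as triangles. Circles lie apart from triangles except for EIF3I and EIF3J, whose replicate numbers overlap. The shapes lie farthest apart for EIF3E, at 441 and 455 CPM against 216 and 203 CPM.

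The EIF2 group holds the 3 subunits that deliver the initiator tRNA, the EIF2B exchange factor that recharges them with GTP, kinases that shut them off, and the alternative carriers EIF2A and EIF2D. Of its 13 genes, 0 passed the test, 6 were higher and 7 lower with the YTHDF1 vector, and the median log2 fold change was -0.01. EIF2D, which can place tRNA without GTP and helps recycle ribosomes, had 62.6 and 58.9 CPM in control and 55.7 and 56.6 CPM with YTHDF1. Both YTHDF1 libraries were below both control libraries, and the log2 fold change of -0.11 (95% interval -0.35 to 0.12) was the lowest of the 70. EIF2A, an alternative carrier of initiator tRNA, was the next lowest of the group at -0.07 (SE 0.16), with 163 and 141 CPM in control and 160 and 130 CPM with YTHDF1.

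At the other end stood EIF2S1, the alpha subunit whose phosphorylation stops initiation under stress, with 138 and 107 CPM in control and 149 and 107 CPM with YTHDF1. Its log2 fold change was 0.06 (SE 0.24), and the replicates numbered 2 were equal in both vectors. EIF2S3, the gamma subunit that holds GTP and the initiator tRNA, had 319 and 323 CPM in control and 335 and 327 CPM with YTHDF1, so both YTHDF1 libraries were higher, by 0.05 on the log2 scale (SE 0.08). The beta subunit EIF2S2 had a log2 fold change of -0.05. The 5 EIF2B genes ranged from -0.04 to 0.02. The kinases EIF2AK1, EIF2AK3 and EIF2AK4, which sense heme, endoplasmic reticulum stress and amino acid shortage, ranged from -0.03 to 0.03.

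The EIF4 group covers the cap-binding EIF4E proteins and their inhibitors, the EIF4A helicases with EIF4B and EIF4H, and the EIF4G scaffolds. Of its 14 genes, 0 passed the test between the vectors. With YTHDF1, 10 were higher and 4 lower, where 52.2% of all genes tested were higher. The median log2 fold change was 0.03. EIF4EBP2, a repressor that binds EIF4E, was the highest of the group at 0.09 (SE 0.27), from 114 and 83.1 CPM in control and 125 and 85.8 CPM with YTHDF1. EIF4E, the cap-binding protein itself, had 116 and 115 CPM in control and 126 and 119 CPM with YTHDF1. Here both YTHDF1 libraries were above both control libraries, at a log2 fold change of 0.08 (95% interval -0.15 to 0.31). The lowest were EIF4G3, a scaffold of EIF4F, at -0.05 (SE 0.18) and EIF4E3, a minor cap-binding relative, at -0.05 (SE 0.18). EIF4G3 had 93.1 and 119 CPM in control and 93.1 and 111 CPM with YTHDF1, and EIF4E3 had 13.3 and 15.6 CPM in control and 13.3 and 14.6 CPM with YTHDF1, both overlapping.

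Among the EEF genes, which comprise EEF1 subunits, EEF2, its kinase and the methyltransferases that modify EEF1A and EEF2, 0 of 14 passed, 6 were higher and 8 lower, and the median was -0.01. EEF2K, the kinase that inactivates EEF2, was the highest at 0.08 (95% interval -0.16 to 0.31), with 44.9 and 43.3 CPM in control and 46.9 and 46.1 CPM with YTHDF1 and no overlap. EEF1A1, the main carrier of aminoacyl-tRNA, had 15194.5 and 17162.6 CPM in control and 15530.9 and 17615.5 CPM with YTHDF1, a log2 fold change of 0.03 (SE 0.15). EEF1A2, the second form of that carrier, was among the lowest at -0.07 (SE 0.30), with 298 and 200 CPM in control and 279 and 196 CPM with YTHDF1. The lysine methyltransferase EEF1AKMT2 was at -0.07 (SE 0.36), with 25.3 and 16.4 CPM in control and 24.4 and 15.3 CPM with YTHDF1. In EEF1A1, EEF1A2 and EEF1AKMT2 the replicate number separated the libraries and the vector did not.

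Of the 15 other factors, 0 passed and the median was 0.04. With the YTHDF1 vector 13 were higher and 2 lower, where 52.2% of all genes tested were higher. EIF5A2, the minor form of the hypusine-bearing factor EIF5A, had the highest log2 fold change of the 70, 0.14 (95% interval -0.36 to 0.63), with 20.3 and 23.6 CPM in control and 22.0 and 26.3 CPM with YTHDF1. Within each replicate number the YTHDF1 library was the higher one, by 0.12 and 0.16, but the vectors overlapped. PABPC1, the main cytoplasmic poly(A)-binding protein, had 1755 and 1249 CPM in control and 1910 and 1255 CPM with YTHDF1, a log2 fold change of 0.08 (SE 0.30). EIF1, which guards start codon choice, had 462 and 462 CPM in control and 434 and 470 CPM with YTHDF1, at -0.03 (SE 0.10). The lowest of these factors, the Y-linked EIF1AY, was at -0.08 (SE 0.60).

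The replicate number, fitted beside the vector in the same 4 libraries, separated many of these mRNAs. The number is a label and no condition, and the test measures the spread on which the comparison of the vectors rests. At an adjusted p under 0.05 by edgeR's quasi-likelihood test, 41 of the 70 genes differed between the numbers, 17 higher and 24 lower in replicate 2, which is 58.6% against 51.8% of all genes tested and 59.8% of genes at least as abundant as the least abundant translation factor. The share was therefore near the background. With a difference of 0.5 or more on the log2 scale as well, 8 of the 70 remained, 1 higher and 7 lower, against 25.7% of all genes tested, 9.71% higher and 16% lower. That background includes genes less abundant than any of the 70. The sign was the same in both vectors for 62 of 70 genes and for 83.7% of all. The difference between the numbers was larger than that between the vectors in 61 of 70 genes, or 87.1%. The share was 83.5% of all genes tested and 86.6% of those at least as abundant as the least abundant translation factor. Among the 70 the median size was 0.18 between the numbers and 0.036 between the vectors, on the log2 scale. Between the numbers it was 0.31 over all genes tested and 0.22 over those at least as abundant.

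**Figure D3:**
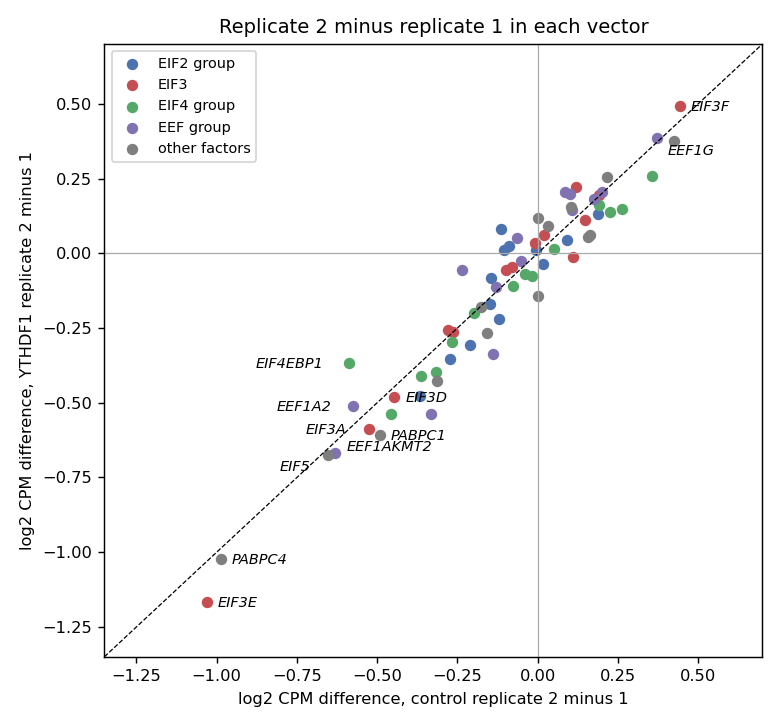
Each point is a gene, with the log2 CPM difference between replicate 2 and replicate 1 in control on the horizontal axis and in the YTHDF1 vector on the vertical axis, coloured by group (EIF1AY not drawn, dashed line at equality). The points lie along the line, from EIF3E at -1.03 and -1.17 to EIF3F at 0.44 and 0.49, and the genes of each colour fall on both sides of zero.

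EIF3 subunit mRNAs differed between the numbers in both directions. Of 14, 4 were higher in replicate 2 (EIF3F, EIF3G, EIF3K and EIF3M), 5 were lower (EIF3A, EIF3B, EIF3D, EIF3E and EIF3H), and EIF3C, EIF3CL, EIF3I, EIF3J and EIF3L did not pass. These are 28.6% and 35.7% of the EIF3 genes, near the 23% higher and 28.7% lower among all genes tested. EIF3E was 2.14-fold lower in replicate 2, with a log2 difference of -1.10 (SE 0.05, adjusted p = 6.8e-08 by edgeR). EIF3A and EIF3D were lower by 1.47-fold and 1.38-fold. EIF3F was 1.38-fold higher, with a log2 difference of 0.47 (SE 0.04, edgeR's adjusted p = 1.29e-05). EIF3I at 0.01 (SE 0.04) and EIF3L at 0.04 (SE 0.04) lay between them.

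The largest differences outside EIF3 were in factors of unlike roles. PABPC4, an inducible relative of PABPC1, had 156 and 78.8 CPM in control replicates 1 and 2 and 164 and 80.7 CPM with YTHDF1, and was 2.01-fold lower in replicate 2 (log2 difference -1.01, SE 0.05, edgeR's adjusted p = 9.5e-08). PABPC1 was lower as well, by 1.46-fold. EIF5, the GTPase activator of EIF2, had 295 and 188 CPM in control and 300 and 188 CPM with YTHDF1, and was 1.58-fold lower in replicate 2. EEF1AKMT2 and EEF1A2 were lower by 1.57-fold and 1.46-fold. EIF1AY was the only one of the 8 genes past the size limit that was higher in replicate 2, with a log2 difference of 1.15 (SE 0.07).

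Within the other groups the ratio between paralogs differed between the numbers in 3 pairs, chosen after their values were seen. Over all genes tested 51.8% differed between the numbers, and other gene pairs were not counted. PABPC1 and PABPC4 were both lower in replicate 2, by unlike amounts. EIF4A2 was lower in replicate 2 by 0.39 on the log2 scale and EIF4A1 higher by 0.18, so that the ratio of EIF4A2 to EIF4A1 counts was 0.424 and 0.433 in the replicates numbered 1 and 0.289 and 0.292 in those numbered 2. The ratio of EEF1A2 to EEF1A1 was 0.0196 and 0.0179 against 0.0116 and 0.0111, and that of PABPC4 to PABPC1 was 0.0890 and 0.0858 against 0.0631 and 0.0643. In all 3 pairs the ratio split by number and not by vector, and none of the 3 pairs shared a 100-base stretch of transcript. EIF4EBP1 and EIF4EBP2 were both lower in replicate 2, by 1.39-fold and 1.41-fold, while EIF4E itself did not pass, with a log2 difference of -0.05 (SE 0.05). In the EIF2 group EIF2S1 was 1.34-fold lower and EIF2AK4 1.12-fold higher, and 0 of the 5 EIF2B genes passed.

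Levels of different genes were compared as CPM per kb, dividing by the median length of the GENCODE release 29 transcripts that carry the gene's RefSeq accessions, with the mean over the 4 libraries. The length is that of the annotated transcripts, which may not be the ones used in these cells. Elongation factors were the most abundant, with EEF1A1 at 3687, EEF1G at 1614, EEF2 at 1214 and EEF1B2 at 804 CPM per kb. EIF5A and EIF4A1 followed at 723 and 680 CPM per kb and PABPC1 at 443 CPM per kb. The lowest were EIF5AL1 at 1.41, EIF4E3 at 2.34 and EEF1AKMT3 at 2.82 CPM per kb. The place of EIF4E3 turns on the length used, since its transcripts run from 777 to 9949 bases.

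EIF3 subunits lay in a narrower band, from 47.7 CPM per kb for EIF3CL to 236 for EIF3L. Next to EIF3L stood EIF3E at 213 and EIF3F at 210 CPM per kb, then EIF3I at 166, EIF3K at 150, EIF3G at 142 and EIF3D at 108. EIF3B at 89.8, EIF3A at 84.0, EIF3J at 71.1, EIF3M at 70.8, EIF3H at 67.4 and EIF3C at 50.6 CPM per kb closed the order. The low places of EIF3C and EIF3CL are not settled, since reads may have been divided between these near-copies. Most neighbours overlapped in their ranges over libraries, EIF3K from 138 to 161 and EIF3G from 131 to 153, for example, whereas EIF3I, from 163 to 169, lay above both. These ranges do not cover the choice of length. The transcripts of EIF3M run from 1207 to 5051 bases and those of EIF3J from 925 to 2569, so their places turn on it too. The place of EIF3E depended on the replicate number. It was the highest subunit in the replicates numbered 1, at 286 and 295 CPM per kb against 235 and 230 for EIF3L, and was at 140 and 131 against 238 and 239 in those numbered 2.

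**Figure D4:**
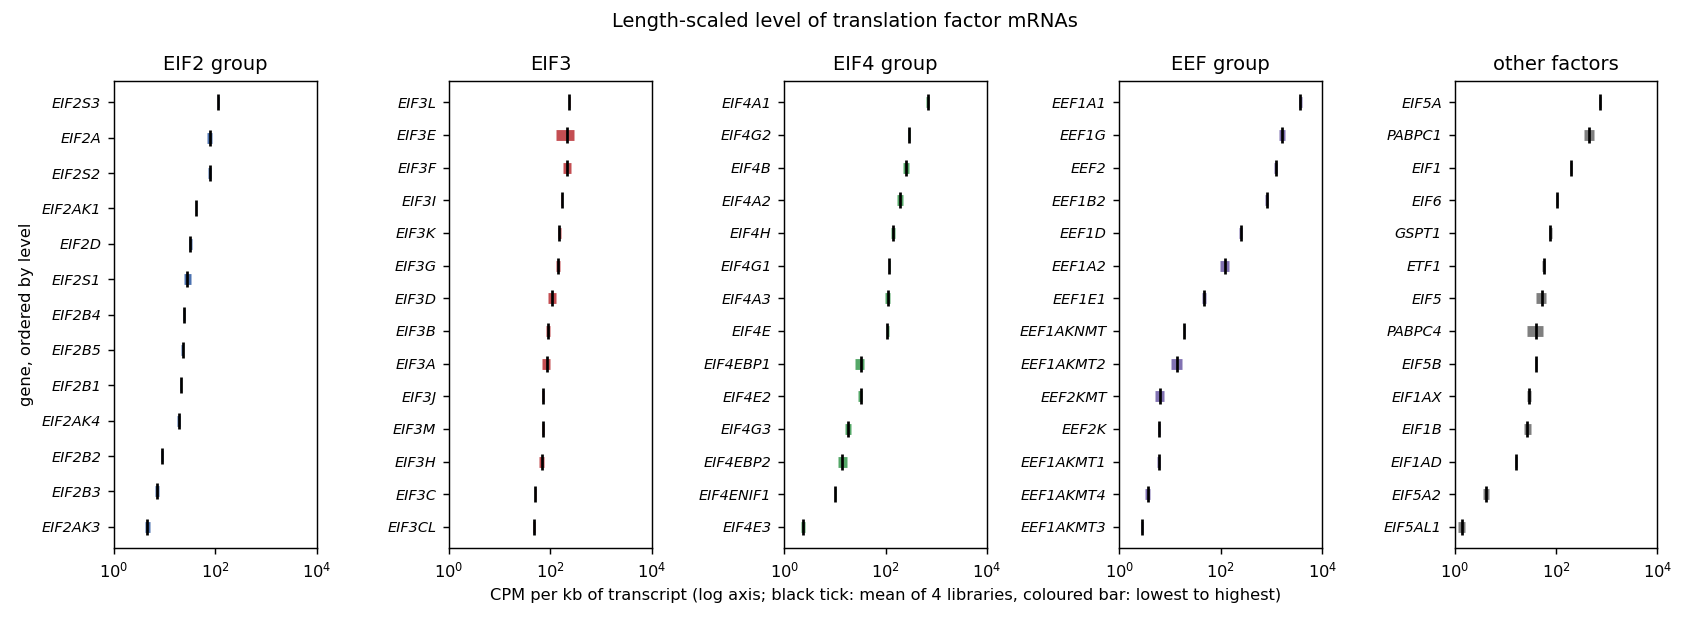
Black ticks give the mean CPM per kb of transcript over the 4 libraries (log horizontal axis, the same in each panel) and coloured bars the lowest to the highest library, by group and without EIF1AY. The EEF group spans the widest range, from 2.82 for EEF1AKMT3 to 3687 for EEF1A1, and EIF3 spans 47.7 to 236 CPM per kb. The lowest EIF3 genes drawn, EIF3CL and EIF3C, are near-copies between which reads may have been divided.

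Many mRNAs of the translation machinery begin with a 5′ terminal oligopyrimidine tract, a C at the first base followed by an unbroken run of C and T, through which mTOR and LARP1 control their translation. The annotated starts were read for such a tract in the 54 of the 70 factors with an entry in the RefSeq promoter table. Windows of 25 bases, 5 before and 20 from the annotated start on the gene's strand, are given from RefSeq on GRCh38.p14. The members shown were higher, lower or passed in neither direction between the replicate numbers. The tract is in capitals where there is one of at least 5 bases.
EEF1A1 (chr6:73521013-73521037, minus strand): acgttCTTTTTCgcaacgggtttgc
EEF2 (chr19:3985444-3985468, minus strand): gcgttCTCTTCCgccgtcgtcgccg
EEF1B2 (chr2:206159890-206159914, plus strand): cgggtCCTTTTTCCTCTCTTCagcg
EIF3D (chr22:36529147-36529171, minus strand): gtttcCTCTTTTCCTggtttctcaa
EIF3F (chr11:7987332-7987356, plus strand): gcctcCTTCTTTCTCgacaagatgg
EIF3K (chr19:38619183-38619207, plus strand): accacCTCTTCCTgttcccgtcctt
EIF3M (chr11:32583826-32583850, plus strand): gttccCTTTTCCggtcggcgtggtc
EIF4B (chr12:53006451-53006475, plus strand): cgggtCTTTTgcgttctctttccct
EIF4A2 (chr3:186783572-186783596, plus strand): gctgtCTTTTCagtcgggcgctgag
EIF4A1 (chr17:7572820-7572844, plus strand): tccgccctagtttctaaggatcatg
EIF3I (chr1:32222402-32222426, plus strand): gtcttactcacgttgcggccttcct
EIF3J (chr15:44537142-44537166, plus strand): gtgctaactcctcgctagctctccc

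A tract of at least 5 bases stood at an annotated start of 12 of those 54 factors (22.2%). The share was 6.33% of 15515 protein-coding genes and 7.23% of the 11353 of them that were tested. Besides the 9 tracts shown, EIF2A, EIF2D and EIF2S3 had one. EEF1B2 also has an annotated start without a tract, which is not shown. EIF4A2 has the tract and EIF4A1 does not, and the annotated starts of EIF3I and EIF3J, the sixth base of their windows, are an A. Of the 12 with a tract, 6 were higher and 4 lower in replicate 2, with a range from -0.46 for EIF3D to 0.47 for EIF3F on the log2 scale. Of the 42 without, 9 were higher and 11 lower. Of 821 protein-coding genes tested that have a tract 226 were higher and 253 lower. Of 10532 without one, 2712 were higher and 3342 lower. Over all genes tested, 23% were higher and 28.7% lower in replicate 2. Between the vectors the median log2 fold change of the 12 with a tract was 0.01. A missing tract says only that these letters were not at the annotated start, and the start used in these cells was not measured.

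On a list of 11 mRNAs among these genes that are counted in general knowledge as beginning with such a tract (EEF1A1, EEF1B2, EEF1D, EEF1G, EEF2, EIF3A, EIF3E, EIF3F, EIF3H, EIF4B and PABPC1), 0 passed between the vectors, 8 were higher, and the median log2 fold change was 0.01. All 11 differed between the replicate numbers, 6 higher and 5 lower in replicate 2, where 23% and 28.7% of all genes tested were higher and lower. Of the 70 factors 58.6% differed. The SE of these 11 differences ran only from 0.040 for EEF1B2 to 0.052 for EEF2, so small differences could pass. Whether the list differs from other mRNAs measured as precisely was not tested. At the RefSeq starts read here, EEF1A1, EEF1B2, EEF2, EIF3F and EIF4B of this list had a tract and EEF1G did not, and the starts of the rest are not given. The 5 elongation factors of the list and EIF3F were the higher ones. EEF1G, a structural subunit of the EEF1 exchange complex, differed most among the higher EEF genes, with 2135 and 2762 CPM in control replicates 1 and 2 and 2141 and 2795 CPM with YTHDF1, and was 1.30-fold higher in replicate 2 (edgeR's adjusted p = 0.000117). EEF2 differed least, 1.11-fold (edgeR's adjusted p = 0.0424).

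Some factors have pseudogenes or near-copies with which they may share reads. EEF1A1 has 37 listed pseudogenes that took counts equal to 14.4% of its own. The counts of named pseudogenes equalled 9.45% of those of EIF4E, 8.97% for EIF1AX, 8.03% for EIF4H, 3.26% for EIF4B and 3.10% for EIF3F. For the other 21 genes with named pseudogenes the share was at most 0.944%. These shares do not bound the error in the levels of any of these genes. How reads that fit several places were counted is not given in the sources used here. EIF5AL1, a near-copy of EIF5A, had 0.00504 to 0.00630 times the counts of EIF5A in each library, and 7.78% of the 100-base stretches of EIF5A transcripts also occur in it.

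Genes that work with these factors were counted from hand-written lists. Of 44 partners and regulators tested (among them MTOR, its substrates and the EIF4A inhibitor PDCD4), 0 passed between the vectors, and 6 were higher and 16 lower in replicate 2, where 23% and 28.7% of all genes tested were higher and lower. LARP1, the protein that binds the oligopyrimidine tract, was the highest of them in replicate 2, with 397 and 526 CPM in control replicates 1 and 2 and 399 and 517 CPM with YTHDF1 (log2 difference 0.39, SE 0.04, edgeR's adjusted p = 3.53e-05). PAIP2B, an inhibitor of PABPC1, was the lowest, with 255 and 29 counts in control and 327 and 53 counts with YTHDF1, a log2 difference of -2.84 (SE 0.21). The PABPC1 activator PAIP1 was higher by 0.29 on that scale, and PPP1R15B, which helps to remove the phosphate from EIF2S1, was lower (log2 difference -0.56, SE 0.05).

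Of 20 cytosolic aminoacyl-tRNA synthetases, 0 passed between the vectors, with a median log2 fold change of 0.0042, and 1 was higher and 12 lower in replicate 2, beside the same 23% and 28.7% of all genes tested. The 1 that was higher was WARS1, the tryptophanyl-tRNA synthetase, which IFN-γ is known to induce. It stood at 1566 and 2430 CPM in control and 1638 and 2431 CPM with YTHDF1, a log2 difference of 0.60 (SE 0.05) between the numbers. MARS1, the methionyl-tRNA synthetase, was the lowest at -0.71 (SE 0.04). Of 11 mitochondrial translation factors tested, 0 passed between the vectors and 2 were higher and 2 lower in replicate 2, against 23% and 28.7% of all genes tested, the largest difference being that of MRRF, which recycles mitochondrial ribosomes, at -0.67 on the log2 scale.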

How the data were processed

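Poly(A) RNA was sequenced from 4 libraries of SNU638 cells, 2 per vector. The authors deposited counts, whole numbers of reads per gene without normalization, and the submitters' processing notes name Trimmomatic, HISAT2 and the build GRCh38. The counting tool, its strand setting and the annotation release are not given in the sources used here. The kit was stranded, and overlapping or antisense genes may share reads if strand was not used.

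In R 4.3.3, genes were kept by filterByExpr of edgeR 4.0.16, scaled by TMM and compared with glmQLFTest on all 4 libraries. The group alone was the term for the vectors, and group and replicate number were the terms for the numbers. p-values were adjusted by Benjamini-Hochberg over 17781 genes, and the rules were an adjusted p under 0.05 and, as in the study, an unadjusted p under 0.05 with a change of 0.5 or more on the log2 scale. Log2 CPM differences used a prior count of 0.5. Standard errors were taken as the estimate divided by the square root of the F statistic, in size. The members and lists were chosen with earlier results of these data known. Named were YTHDF1, every EIF3 gene, the 2 highest and 2 lowest per other group, the 5 with the largest difference between numbers, genes passing the vector test (0) and list genes with the largest differences between numbers. Other members served as examples, chosen after their values were seen. EIF1AY is given as differences only. Alternatives used DESeq2 1.42.0 and limma 3.58.1. Procedures were tested on simulated data. Sequences and starts were read from RefSeq tables of GRCh38.p14 with Python 3.11.15, and plots were drawn with matplotlib 3.10.9. A gene at 0 counts in a library could hold up to 3, which covers counting error only. Same-numbered libraries deviated together from their group means (Pearson's r = 0.875 over 17781 genes), but the labels give the number no meaning and there are only 2 pairs, so the number was used as a block only as an alternative.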

Additional observations from a re-analysis of the deposited data

How the results depend on the processing

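Between the vectors, 0 of the 70 factors had an unadjusted p under 0.05 under each alternative fitted on all 4 libraries. Tests and scaling were varied with size factors from DESeq2, its Wald test, limma-voom, the likelihood ratio test of edgeR and library sizes without YTHDF1. Filters were a minimum of 10 counts per library or none, and the replicate block was also fitted. Without the block, from 18 (likelihood ratio test) to 87 (no count filter) of all genes had an unadjusted p under 0.05. Those fits keep the spread between the replicate numbers in their error, so their counts of 0 among the 70 add little. With the replicate block, 674 of all genes had an unadjusted p under 0.05 and 10 an adjusted p under 0.05, in place of 24 and 0, but 0 of the 70 factors did, and it changed no other call. EIF3E, at 0.002, turned to -0.024 with limma-voom, -0.000479 with no filter, -0.000354 with at least 10 counts, -0.00336 with YTHDF1 left out and -0.022 with the replicate block. All are within its error.

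With each library left out in turn, 1 vector holds 1 library, which was assumed to vary like the others. The median log2 fold change between the vectors then ran from -0.077 to 0.032 for EIF2, from -0.064 to -0.015 for EIF3, from 0.0031 to 0.090 for EIF4, from -0.032 to 0.031 for EEF and from 0.015 to 0.029 for the other factors. Single genes changed sign. EIF3A ran from -0.34 to 0.27, EIF3B from -0.17 to 0.11, EIF3CL from -0.096 to 0.0075, EIF3D from -0.29 to 0.21, EIF3E from -0.70 to 0.61, EIF3F from -0.24 to 0.27, EIF3G from -0.14 to 0.060, EIF3H from -0.099 to 0.19 and EIF3J from -0.082 to 0.025. EIF3K ran from -0.13 to 0.10, EIF3L from -0.051 to 0.016, EIF3M from -0.053 to 0.091, EIF2A from -0.23 to 0.070, EIF2S1 from -0.19 to 0.28, EIF4G3 from -0.22 to 0.13, EIF4E3 from -0.16 to 0.064, EIF4EBP2 from -0.20 to 0.34 and EEF1AKMT2 from -0.44 to 0.28. EEF1A2 ran from -0.35 to 0.25, EEF1A1 from -0.066 to 0.12, EIF1AY from -0.73 to 0.64, EIF1 from -0.097 to 0.027, PABPC1 from -0.26 to 0.34, EIF5A2 from -0.0030 to 0.26, PABPC4 from -0.54 to 0.63 and EIF5 from -0.36 to 0.38. In each case 1 of the vectors was then represented by 1 replicate number only.

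Between the replicate numbers, the alternatives gave 13 to 18 factors higher and 24 or 25 lower, and 8 or 9 past the size limit. In the main fit 58.6% of the factors differed against 51.8% of all genes tested. Past the size limit the shares were 11.4% and 25.7%. Shares of all genes under the alternatives are not given here, so these counts show nothing particular to the factors. EIF3M missed the threshold without a filter on low counts (adjusted p = 0.0507 by edgeR). With each library left out, with values only, the median difference ran from -0.12 to -0.028 for EIF2, from -0.045 to -0.021 for EIF3, from -0.093 to -0.058 for EIF4, from -0.058 to 0.020 for EEF and from 0.00015 to 0.062 for the other factors. None of the 70 genes had fewer than 271 counts in a library. Their standard errors between the vectors ran from 0.077 to 0.60, and from 0.040 to 0.14 with the replicate block.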

Other observations

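The positions of these genes were looked at after their values were seen, using RefSeq gene coordinates on GRCh38.p14 and the log2 difference between replicate 2 and replicate 1 of the genes tested whose start lay within 5 Mb on either side. EIF3E had 17 such neighbours with a median of -0.42, of which 10 were lower and 1 higher at an adjusted p under 0.05 by edgeR. EIF5 (chr14:103334237-103345025) had 71 with a median of -0.56, 51 lower and 5 higher. EIF3A (chr10:119033670-119080817) had 49 with a median of -0.39, 26 lower and 2 higher, and PABPC1 had 51 with a median of -0.38, 28 lower and 5 higher. EIF3F (chr11:7987337-8001852), which was higher in replicate 2, had 88 with a median of 0.14, 22 lower and 31 higher. For PABPC4 (chr1:39560816-39576790) the 133 neighbours had a median of -0.05, while the gene itself was at -1.01. Neighbour medians were also near zero for EEF1A2, EIF4EBP2, EIF3D and EIF2S1, at -0.014, -0.016, -0.035 and 0.0012. Those genes were themselves at -0.54, -0.50, -0.46 and -0.42. Over all genes tested, 23% were higher and 28.7% lower in replicate 2.

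Across the 67 factors on autosomes, a factor's own difference and the median of its neighbours, other factors left out, had a Pearson's r of 0.464 and a Spearman's rho of 0.307. Their signs were the same for 40 of the 67. This is a description across genes, which share the 4 libraries and in part the same neighbours. By chromosome, the median difference between the numbers over genes tested was lowest on chromosome 8, at -0.18 with 258 genes lower and 90 higher, and among autosomes highest on chromosome 11, at 0.21 with 151 lower and 438 higher. Of the 5 factors on chromosome 8, EIF3E, EIF3H, PABPC1 and EIF4EBP1 were lower in replicate 2, but EEF1D was higher by 0.15 on the log2 scale beside neighbours with a median of -0.35. The neighbours of EIF3H, at -0.03, and of EIF4EBP1, at 0.08, had medians near zero. Of the 5 on chromosome 11, EIF3F, EIF3M and EEF1G were higher, while EIF1AD at 0.10 and EIF4G2 at -0.09, beside neighbours at 0.20 and 0.16, did not pass the test. The median difference between the vectors was 0.012 on chromosome 8 and 0.0053 on chromosome 11.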
